A study of Mus musculus with 13 samples.

Results

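RNA levels of 9 surface receptors were followed in microglia, the resident macrophages of the mouse brain. The receptors were chosen by gene symbol: Cd33, Siglece, Siglec1, Cd22, Lilrb4a, Pilra, Sirpa, Cd300lf and Lair1, which are sialic acid binding lectins of the Siglec family and other receptors known mainly for inhibitory signalling. All 9 were among the 19737 genes listed, and all 9 averaged at least 1 FPKM (fragments for each kilobase of a gene, divided by library size) over the 13 libraries, as did the 10817 genes that entered the tests. RNA was sequenced in 13 libraries of 4 groups. Wild type mice (3 libraries) had received AAV PHP.eB-EGFP, an adeno-associated virus whose capsid is used for delivery to the brain, carrying a fluorescent protein. Among the libraries of 5xFAD mice, 2 were from mice with the same AAV PHP.eB-EGFP and 4 from mice with AAV PHP.eB-circPOLR2A, a vector for a circular RNA. Treatment labels of the 4 circRNA libraries run from (9,10) to (9,13). They were grouped by title, and it is not settled whether 1 construct was used for all. The last group was 5xFAD; PKR KO (4 libraries), labelled as a knockout of PKR, a kinase activated by double-stranded RNA. No vector is named for the knockout, so its vector status and its genotype cannot be told apart in comparisons with the EGFP groups. The 5xFAD line is a model of amyloid deposition in which mutant human transgenes are driven by a promoter active in neurons. Age, sex and strain are not given in the labels.

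Siglecs bind sialic acids, the sugars that cap many glycans on cell surfaces, and most carry an inhibitory motif in the cytoplasmic tail (ITIM, immunoreceptor tyrosine-based inhibitory motif). When phosphorylated by Src-family kinases, an ITIM recruits the phosphatases SHP-1, SHP-2 or SHIP-1, which oppose activating receptors that signal through adaptors such as DAP12. LILR, PILR, SIRP, CD300 and LAIR receptors use the same motif with other ligands, and in microglia several of these receptors are known as brakes on phagocytosis and activation.

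Promoter sequences are shown for Siglece and Cd33, with the highest means in wild type, and for Cd300lf and Cd22, with the highest in 5xFAD. Each covers 250 bases before and 50 bases from the RefSeq start site (build GRCm38.p6), on the minus strand, and is printed in the direction of transcription. The regions are chr7:43660112-43660411 for Siglece, chr7:43533122-43533421 for Cd33, chr11:115133943-115134242 for Cd300lf and chr7:30878979-30879278 for Cd22. Those of Siglece and Cd300lf lie at the gene starts of the GENCODE M21 annotation. Those of Cd33 and Cd22 lie inside the gene spans of that annotation, so the 4 regions are not alike in position. Capitals mark GAGGAA or its reverse complement TTCCTC, a core motif bound by PU.1, the ETS-family factor of the myeloid lineage.
Siglece: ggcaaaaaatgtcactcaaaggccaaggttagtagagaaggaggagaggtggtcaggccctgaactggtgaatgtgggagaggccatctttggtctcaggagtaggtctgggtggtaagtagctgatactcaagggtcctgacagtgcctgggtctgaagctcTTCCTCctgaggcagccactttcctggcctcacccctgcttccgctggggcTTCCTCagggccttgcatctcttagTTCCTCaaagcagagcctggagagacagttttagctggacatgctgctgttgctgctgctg
Cd33: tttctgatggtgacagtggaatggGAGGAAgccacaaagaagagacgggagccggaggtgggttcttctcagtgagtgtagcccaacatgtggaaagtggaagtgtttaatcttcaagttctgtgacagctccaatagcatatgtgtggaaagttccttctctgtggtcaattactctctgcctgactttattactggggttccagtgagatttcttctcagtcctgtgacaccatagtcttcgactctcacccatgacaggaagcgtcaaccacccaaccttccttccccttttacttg
Cd300lf: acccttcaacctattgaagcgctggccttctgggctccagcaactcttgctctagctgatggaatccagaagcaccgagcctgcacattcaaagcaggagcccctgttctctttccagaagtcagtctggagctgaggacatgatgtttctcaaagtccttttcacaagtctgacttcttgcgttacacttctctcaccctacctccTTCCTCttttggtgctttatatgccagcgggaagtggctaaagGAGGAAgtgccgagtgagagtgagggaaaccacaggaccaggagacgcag
Cd22: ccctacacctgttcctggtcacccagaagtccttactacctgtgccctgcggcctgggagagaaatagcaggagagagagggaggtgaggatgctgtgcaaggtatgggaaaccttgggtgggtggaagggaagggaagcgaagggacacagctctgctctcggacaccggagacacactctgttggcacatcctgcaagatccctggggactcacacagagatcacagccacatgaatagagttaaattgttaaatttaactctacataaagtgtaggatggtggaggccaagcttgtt
Siglece held 3 matches to this motif, at -87, -36 and -11 from the start site. Cd300lf held 2, at -43 and 1. Cd33 held 1, at -226, and Cd22 held none. Among the 6 receptors matched to a RefSeq promoter (these 4, Pilra and Lair1), 5 had at least 1 match, and 28.3% of all 32851 mouse promoters of this length did. The interferon-stimulated response element, read as GAAA, 2 bases of any kind and GAAA, was searched on both strands in the same way. It was found only in Pilra, at -178, and in 3.44% of all promoters. The E-box CACGTG was found in none of the 6 and in 7.15% of all promoters. No matches to different motifs overlapped. Receptors on either side of the comparison with wild type held the first motif, and a match describes these letters only. Siglec1, Lilrb4a and Sirpa are named without a sequence.

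Depth recovered from the FPKM values was 45.2 to 70.0 M (mega) fragments for each library, highest in PKR KO (57.7 to 70.0 M). Every library of the other groups was at or below 54.9 M. Sample records of PKR KO are also numbered apart from those of the other groups. Genotype, depth and any difference in handling therefore cannot be told apart in comparisons with PKR KO. All 8 microglia markers were measured in every library, with a summed level of 2641 to 4560 FPKM. Eif2ak2, the gene for PKR, was at 3.31 to 4.61 FPKM in PKR KO, against 6.49 to 8.11 FPKM in the other 5xFAD libraries and 4.14 to 5.23 FPKM in wild type. The deleted part of the gene is not given in the labels. Wild type replicate 3 stood apart. Its microglia marker sum was 2641 FPKM against 4133 and 4209 FPKM in the other wild type libraries, and its oligodendrocyte marker sum was 1532 FPKM against 373 and 330 FPKM. It was the lowest wild type library for 9 of 9 receptors, as it was for 55.0% of all genes tested, so each receptor's differences from wild type are also given without it. In bulk RNA, fewer cells of a type and less RNA per cell cannot be told apart. Nothing in the labels says that the libraries of a group came from separate animals, and p-values then measure only the spread between these libraries.

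The receptors differed widely in level. Sirpa was at 175 to 381 FPKM over the 13 libraries, rank 49 by mean among the genes tested. Lair1 (30.0 to 52.5 FPKM, rank 390) and Cd33 (27.5 to 56.6 FPKM, rank 454) followed. Lilrb4a, Siglece and Cd22 were intermediate, with the group means given below between 2.24 and 22.2 FPKM. Pilra, Cd300lf and Siglec1 were low, at ranks 8107, 8750 and 8881. In the lowest library the fragments per gene ran from 50 for Cd300lf, a counting error of 14.1%, to 43292 for Sirpa.

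**Figure D1:**
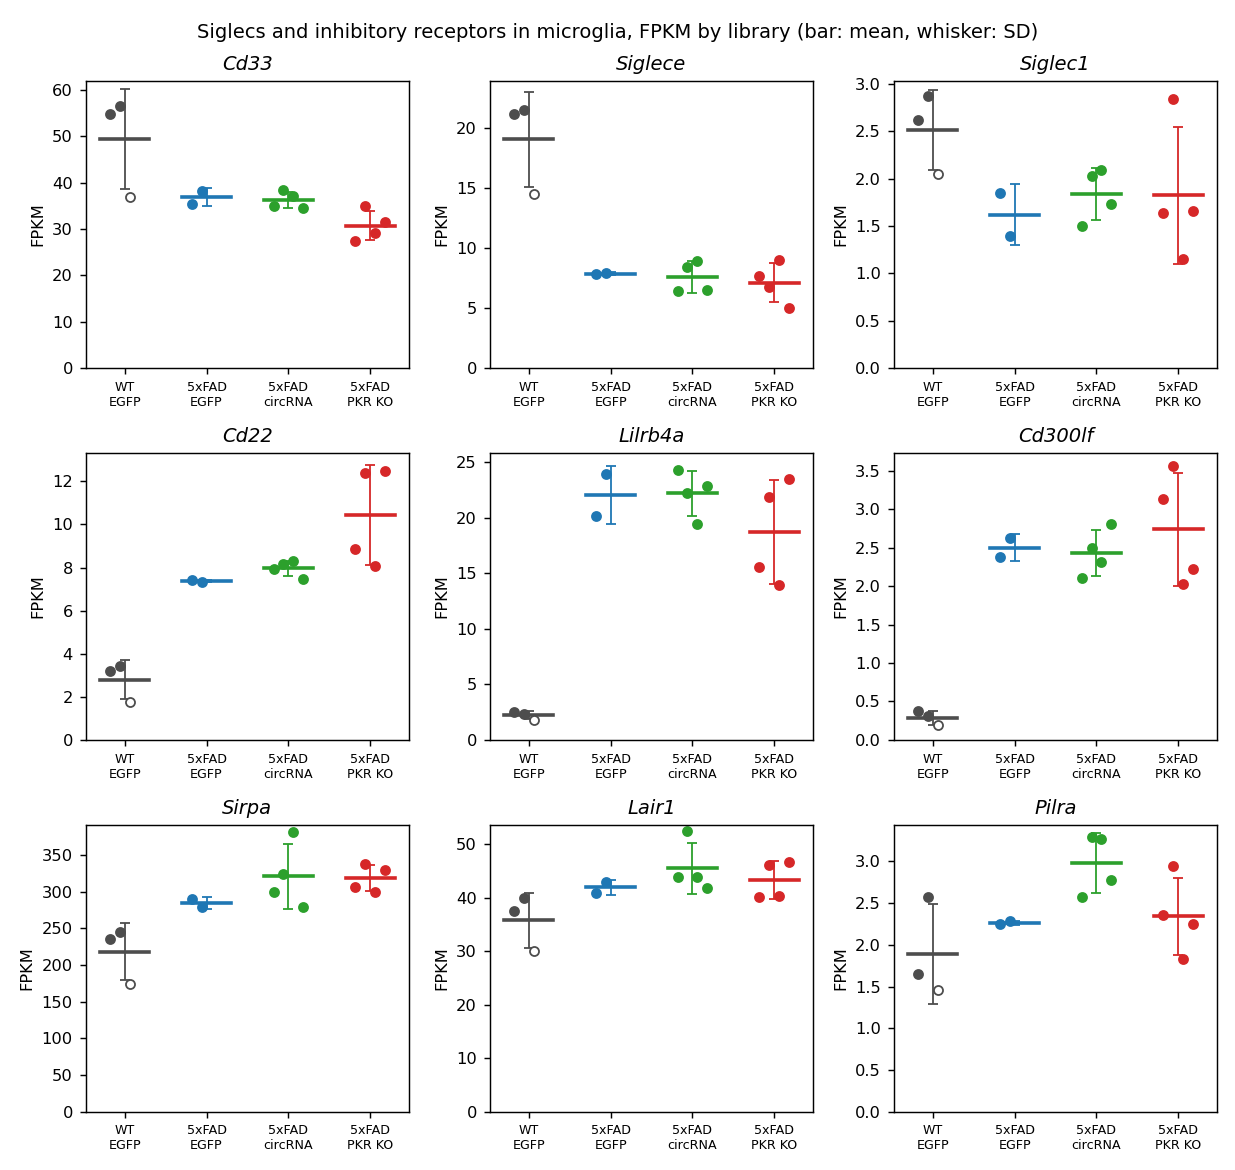
FPKM of each receptor (vertical axis, starting at 0) in each of the 13 libraries, by group; points are libraries, the open point is wild type replicate 3, the bar is the group mean and the whisker its SD. Lilrb4a and Cd300lf have all 10 5xFAD libraries far above the 3 wild type libraries, and Siglece has all of them below.

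The first comparison asked how the receptors differ between 5xFAD and wild type microglia with the same EGFP vector. Lilrb4a, Cd300lf and Cd22 rose and Siglece fell in 5xFAD. The largest rise was in Lilrb4a, from a mean of 2.24 to 22.0 FPKM. Cd33, the most abundant of the 4 Siglecs among the 9 receptors, and Siglec1, Sirpa, Lair1 and Pilra did not pass the test. In limma, 4 of 9 receptors were called (adjusted p under 0.05, Benjamini-Hochberg over 10817 genes), 3 higher and 1 lower, against 14% of all genes tested (7.65% higher and 6.35% lower). Of these, Cd300lf passed the filter on low values through 5xFAD alone. With no filter the same 4 were called, against 4.75% of all genes higher and 5.63% lower. The receptors were chosen with earlier results of these data known, so the counts are descriptions only. The groups did not overlap for 7 of 9 receptors, against 37.6% of all genes. The median change over the 9 was 0.23 on the log2 scale, and -0.03 over all genes. All log2 changes are differences in log2(FPKM + 1), which understates the change of low genes.

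Siglece encodes Siglec-E, an ITIM-bearing Siglec of mouse myeloid cells. It was at 21.2, 21.5 and 14.5 FPKM in wild type and at 7.80 and 7.94 FPKM in 5xFAD EGFP. In circRNA libraries it was at 6.46, 8.43, 8.97 and 6.47 FPKM, and in PKR KO at 7.70, 6.78, 8.98 and 5.04 FPKM. Every 5xFAD library was below every wild type library, and the 3 5xFAD groups overlapped. Against wild type it fell by 1.16 (SE 0.21, limma adjusted p = 0.00378) in 5xFAD EGFP, a ratio of means of 0.413. It fell by 1.22 (SE 0.18, limma adjusted p = 0.000339) with circRNA and by 1.31 (SE 0.18, limma adjusted p = 0.000157) in PKR KO. Without wild type replicate 3 the falls were larger, by 1.33, 1.39 and 1.48. These 3 comparisons share their wild type libraries, here and for every receptor below.

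Cd33 encodes a Siglec of myeloid cells whose human counterpart is an Alzheimer's disease risk gene and whose mouse form lacks the membrane-proximal ITIM of the human protein. It was at 54.8, 56.6 and 37.0 FPKM in wild type, 35.5 and 38.2 FPKM in 5xFAD EGFP, 35.0, 38.4, 37.2 and 34.5 FPKM with circRNA, and 27.5, 34.9, 29.2 and 31.5 FPKM in PKR KO. Wild type replicate 3 lay among the 5xFAD libraries, and the other wild type libraries lay above all of them. The difference in 5xFAD EGFP was -0.39 (SE 0.16, limma adjusted p = 0.141), which is not a call. Without wild type replicate 3 it was -0.58 with an adjusted p of 0.00444 in limma, and over the 16 alternatives run the adjusted p ranged from 0.00443 to 0.439. With circRNA, Cd33 fell by 0.41 (SE 0.14, limma adjusted p = 0.0404), and in PKR KO by 0.65 (SE 0.14, limma adjusted p = 0.00300). Both falls were larger and called without wild type replicate 3, by 0.61 and 0.84. The circRNA call was lost with 2 groups fitted alone (limma adjusted p = 0.122) and with no filter on low values (0.0509). It was also lost in limma when any of 6 libraries was left out: wild type replicate 1 (adjusted p = 0.137) or 2 (0.156), or circRNA replicate 1 (0.0857), 2 (0.0596), 3 (0.0639) or 4 (0.0762). The PKR KO call was kept in all 18 alternatives.

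Cd22 encodes a Siglec known as a brake on B cell receptor signalling and, in aged microglia, on phagocytosis. It was at 3.20, 3.43 and 1.76 FPKM in wild type and at 7.41 and 7.35 FPKM in 5xFAD EGFP. It was at 7.91, 8.14, 8.29 and 7.48 FPKM with circRNA and at 8.85, 12.4, 8.06 and 12.5 FPKM in PKR KO. All 10 5xFAD libraries were above all wild type libraries, and PKR KO replicates 2 and 4 were the highest. Cd22 rose by 1.17 (SE 0.20, limma adjusted p = 0.00247) in 5xFAD EGFP, by 1.27 (SE 0.17, limma adjusted p = 0.000165) with circRNA and by 1.60 (SE 0.17, limma adjusted p = 2.05e-05) in PKR KO. Without wild type replicate 3 the rises were 0.96, 1.05 and 1.39, all 3 called. The summed level of 4 B cell markers was 2.05 to 3.94 FPKM in wild type, 2.12 to 2.32 in 5xFAD EGFP, 1.74 to 3.69 with circRNA and 1.499 to 3.05 in PKR KO. Cd79b made up most of it, Cd79a, Ms4a1 and Pax5 were at 0 in some libraries, and no 5xFAD library was above the highest wild type library in this sum. The part of B cells in the Cd22 values was not tested. An opposite-strand gene, Gm29439, overlaps Cd22 exons.

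Siglec1 encodes sialoadhesin, a macrophage Siglec without an ITIM that is induced by interferon and is abundant in macrophages of the brain borders. It was at 2.62, 2.88 and 2.05 FPKM in wild type, 1.85 and 1.39 FPKM in 5xFAD EGFP, 1.504, 2.03, 2.09 and 1.73 FPKM with circRNA, and 1.64, 2.84, 1.15 and 1.66 FPKM in PKR KO. Wild type and the last 2 groups overlapped. Its differences from wild type were -0.42 (limma adjusted p = 0.194), -0.31 (0.203) and -0.34 (0.121), none called. Leaving out wild type replicate 3 gave -0.52, -0.41 and -0.44, again none called. The 95% intervals with all libraries were -0.85 to 0.00, -0.66 to 0.05 and -0.70 to 0.02. Without PKR KO replicate 2 the knockout difference was -0.50 with a limma adjusted p of 0.0127, in a range of 0.0127 to 0.372 over 18 alternatives. Border macrophage markers were lower beside it: 6 of 6 tested were called lower against wild type in each 5xFAD group. Their sum over 7 genes was 42.9 to 67.9 FPKM in wild type, 20.7 to 29.3 in 5xFAD EGFP, 16.1 to 27.9 with circRNA and 16.3 to 22.0 in PKR KO. A sum of 18 interferon-stimulated genes went the other way, from 47.5 to 54.5 FPKM in wild type to 77.5 to 101, 98.9 to 146 and 105 to 133 FPKM in the same order. The part of either in Siglec1 was not tested.

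The balance among Cd33, Siglece, Cd22 and Siglec1 can be read from shares of the 4 genes' summed FPKM. Other Siglecs are not in this sum, and Siglech alone was above it, at 130 FPKM in wild type and 101 FPKM in 5xFAD EGFP. That sum was 73.8 ± 16.1 FPKM (SD, n = 3) in wild type, 53.7 ± 1.67 (SD, n = 2) in 5xFAD EGFP, 53.7 ± 3.59 (SD, n = 4) with circRNA and 50.2 ± 4.94 (SD, n = 4) in PKR KO. The Siglece share was 25.9% ± 0.35 in wild type and 14.7% ± 0.27, 14.1% ± 1.53 and 14.4% ± 4.19 in the 3 5xFAD groups in that order. The Cd22 share was 3.72% ± 0.47 in wild type and 13.7% ± 0.51, 14.8% ± 0.53 and 20.7% ± 3.28 in 5xFAD. Cd33 held 67.0% ± 0.07, 68.6% ± 1.48, 67.7% ± 1.44 and 61.3% ± 0.80. The 3 wild type libraries, replicate 3 included, had nearly the same Cd33 and Siglece shares although their levels differed. These shares follow from the FPKM already described and carry no test of their own.

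**Figure D2:**
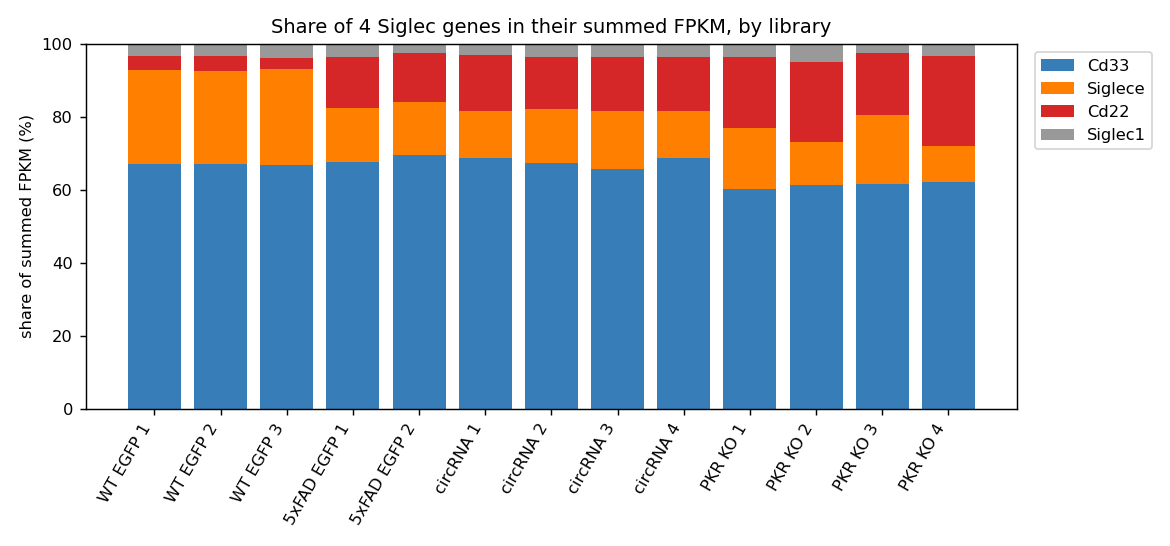
Share of Cd33, Siglece, Cd22 and Siglec1 in their summed FPKM (vertical axis, percent, starting at 0) in each of the 13 libraries, one stacked bar per library. The Siglece part is widest in the 3 wild type bars (mean 25.9%) and the Cd22 part is widest in PKR KO (mean 20.7%).

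Lilrb4a encodes a leukocyte immunoglobulin-like receptor with ITIMs, whose family ligands include integrin alpha-V beta-3 and apolipoprotein E. It was at 2.55, 2.35 and 1.82 FPKM in wild type and at 20.2 and 23.9 FPKM in 5xFAD EGFP. It was at 24.2, 22.2, 19.4 and 22.8 FPKM with circRNA and at 15.5, 21.8, 13.9 and 23.5 FPKM in PKR KO. The lowest 5xFAD library was far above the highest wild type library, and the 5xFAD groups overlapped. It rose by 2.83 (SE 0.19, limma adjusted p = 1.44e-06) in 5xFAD EGFP, a ratio of means of 9.83, by 2.84 (SE 0.16, limma adjusted p = 1.44e-07) with circRNA and by 2.58 (SE 0.16, limma adjusted p = 3.04e-07) in PKR KO. The rises without wild type replicate 3 were 2.73, 2.74 and 2.48, all 3 called. Its value is uncertain in the sense that 46.7% of its 50-base windows also occur in other genes. These are Gm49339, which overlaps it on the same strand, and the neighbouring family member Lilr4b. How fragments were shared between them is not given in the sources used here.

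Cd300lf encodes an ITIM receptor that binds phosphatidylserine and other lipids. It was at 0.374, 0.306 and 0.192 FPKM in wild type and at 2.38 and 2.62 FPKM in 5xFAD EGFP. It was at 2.11, 2.49, 2.31 and 2.81 FPKM with circRNA and at 3.13, 3.57, 2.03 and 2.22 FPKM in PKR KO. All 10 5xFAD libraries were above all 3 wild type libraries. It averaged under 1 FPKM in wild type and entered the tests through the 5xFAD groups, so its selection favoured a rise. It rose by 1.44 (SE 0.16, limma adjusted p = 9.70e-05), 1.41 (SE 0.13, limma adjusted p = 1.09e-05) and 1.52 (SE 0.13, limma adjusted p = 4.16e-06) in the 3 groups in that order, with ratios of means of 8.60, 8.37 and 9.42. They were 1.39, 1.35 and 1.46 without wild type replicate 3, all 3 called. With a pseudocount of 0.1 in place of 1 the log2 rises were 2.76, 2.72 and 2.85.

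Sirpa encodes the receptor for CD47, whose binding restrains phagocytosis. It was at 236, 245 and 175 FPKM in wild type and at 291 and 279 FPKM in 5xFAD EGFP. It was at 300, 324, 381 and 279 FPKM with circRNA and at 307, 338, 300 and 330 FPKM in PKR KO. All 5xFAD libraries were above all wild type libraries. The difference in 5xFAD EGFP was 0.40 (SE 0.17, limma adjusted p = 0.168), which is not a call. It was 0.24 without wild type replicate 3 (limma adjusted p = 0.280), and 0.49 and called with every library scaled to the same microglia marker sum (0.0109). Sirpa rose by 0.56 with circRNA (SE 0.15, limma adjusted p = 0.0142) and by 0.56 in PKR KO (SE 0.15, limma adjusted p = 0.0111), but under quantile normalization the 3 differences were -0.08, -0.02 and -0.10. Both rises were called without wild type replicate 3, at 0.41 and 0.40. The circRNA call was lost when every library was scaled to the same FPKM sum (0.27, limma adjusted p = 0.0906) and with 2 groups fitted alone (0.0883). The PKR KO call was lost with a covariate for neuronal, glial and vascular markers (0.38, limma adjusted p = 0.0523). The direction of Sirpa against wild type therefore depended on the scaling.

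Lair1 encodes an ITIM receptor for collagens and C1q. It was at 37.5, 39.9 and 30.0 FPKM in wild type, 41.0 and 42.9 FPKM in 5xFAD EGFP, 43.8, 52.5, 43.9 and 41.8 FPKM with circRNA, and 40.2, 46.0, 40.3 and 46.7 FPKM in PKR KO. No 5xFAD library fell to the wild type range, though the gap was small. Its differences from wild type were 0.23 in 5xFAD EGFP (SE 0.14, limma adjusted p = 0.311) and 0.28 in PKR KO (SE 0.11, limma adjusted p = 0.0763). Under quantile normalization the PKR KO difference was -0.04, but median ratio scaling made it a call (0.38, limma adjusted p = 0.0377). So did leaving out wild type replicate 2 (0.36, limma adjusted p = 0.0444). Without wild type replicate 3 the differences were 0.11 in 5xFAD EGFP and 0.16 in PKR KO (limma adjusted p = 0.546 and 0.269). With circRNA it rose by 0.34 (SE 0.11, limma adjusted p = 0.0434). Of 18 alternatives, 11 ended this call. In limma these included leaving out wild type replicate 1 (adjusted p = 0.0565) or 3 (0.147, at a rise of 0.22), or circRNA replicate 1 (0.0682), 2 (0.122) or 3 (0.0611).

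Pilra encodes an ITIM receptor for sialylated glycoproteins such as PIANP. It was at 1.65, 2.57 and 1.46 FPKM in wild type, 2.25 and 2.28 FPKM in 5xFAD EGFP, 2.57, 3.30, 3.27 and 2.78 FPKM with circRNA, and 2.36, 2.94, 1.83 and 2.25 FPKM in PKR KO. Wild type replicate 2 lay within the range of each 5xFAD group or above it. The differences from wild type were 0.19 in 5xFAD EGFP (SE 0.16, limma adjusted p = 0.488) and 0.22 in PKR KO (SE 0.13, limma adjusted p = 0.220). Both moved with single wild type libraries. Without wild type replicate 2 they were 0.36 (limma adjusted p = 0.127) and 0.38 (0.0300, a call), and without replicate 3 they were 0.09 (0.745) and 0.11 (0.575). With circRNA, Pilra rose by 0.47 (SE 0.13, limma adjusted p = 0.0211). Of 18 alternatives, 8 ended this call. In limma these included leaving out wild type replicate 1 (adjusted p = 0.0733) or 3 (0.0796, at a rise of 0.37), or circRNA replicate 2 (0.0552) or 3 (0.0541). Zcwpw1, on the opposite strand, overlaps Pilra exons, and 7.57% of its 50-base windows occur in other genes, among them Pilrb1 and Pilrb2.

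**Figure D3:**
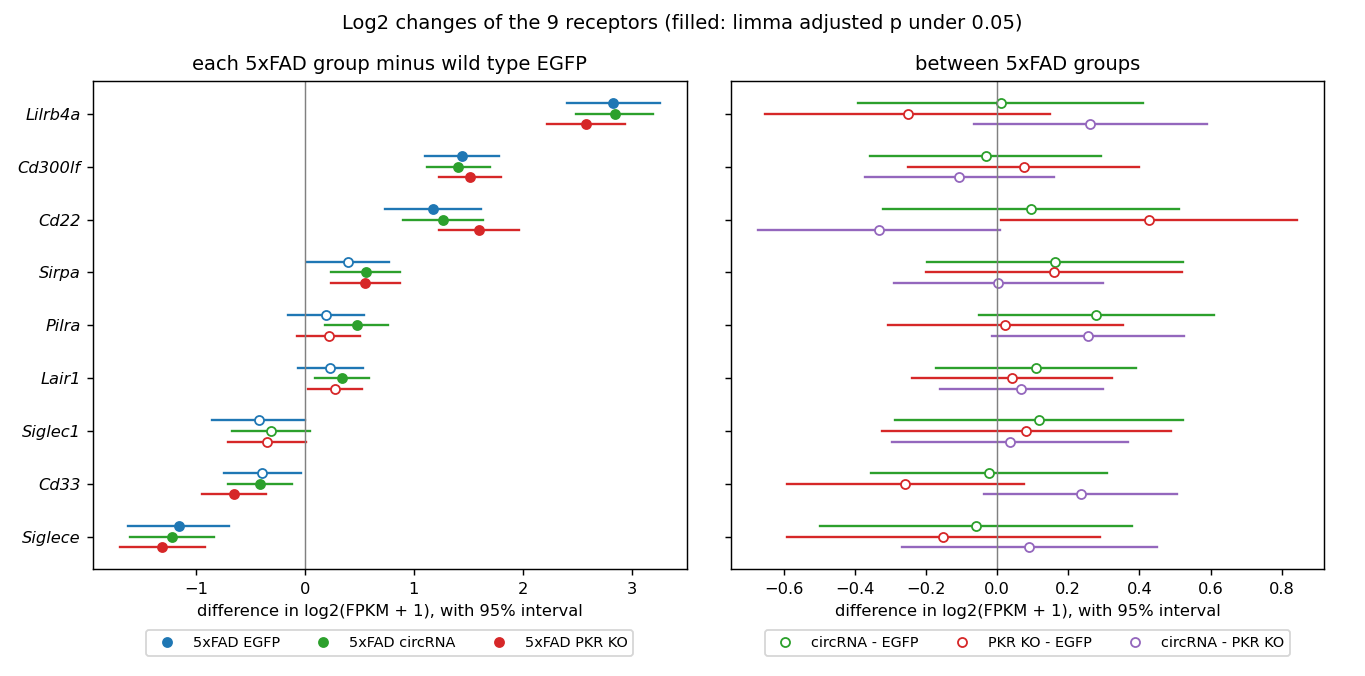
Differences in log2(FPKM + 1) of the 9 receptors (horizontal axis) with 95% intervals, for each 5xFAD group against wild type EGFP at left and between 5xFAD groups at right; filled points have a limma adjusted p under 0.05. At left 4 receptors (Lilrb4a, Cd300lf, Cd22 and Siglece) are filled in all 3 comparisons, and at right none is filled.

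Across the other comparisons with wild type, limma called 8 of 9 receptors with circRNA (6 higher, 2 lower), against 25.8% of all genes, of which 17.8% were higher and 8.05% lower. In PKR KO it called 6 of 9 (4 higher, 2 lower), against 37% of all genes, with 17.5% higher and 19.4% lower. Both counts hold Cd300lf, which passed the filter through 5xFAD alone. The groups did not overlap for 6 of 9 receptors with circRNA (28.2% of all genes) and for 7 of 9 in PKR KO (40.9%). The median change over the 9 receptors was 0.47 with circRNA and 0.28 in PKR KO, and over all genes 0.02 and -0.05. With 2 groups fitted alone the circRNA count was 4 in place of 8, the calls of Cd33, Sirpa, Lair1 and Pilra being lost. Lilrb4a, Cd300lf, Cd22 and Siglece were called against wild type in all 3 comparisons under every alternative run.

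FPKM is a share of the library, so the scaling matters for receptors with small changes. When every library was scaled to the same FPKM sum, the median change of all genes in 5xFAD EGFP against wild type moved from -0.03 to -0.17, and the genes called went from 827 higher and 687 lower to 708 and 3001. The median moved from 0.02 to -0.20 with circRNA and from -0.05 to -0.24 in PKR KO. The genes called went from 1925 higher and 871 lower to 995 and 4681 with circRNA, and from 1898 and 2099 to 1174 and 5421 in PKR KO. Other scalings also moved this split. Quantile normalization gave 1619 higher and 1544 lower with circRNA. Median ratio scaling gave 2757 and 1447 in PKR KO. The same microglia marker sum gave 1326 and 705 in PKR KO and 732 and 203 in 5xFAD EGFP. With the same FPKM sum Cd33 fell by 0.56, 0.70 and 0.88 and Siglec1 by 0.56, 0.51 and 0.51, and both were called in limma in all 3 comparisons. On that scale 3 receptors lost their circRNA call: Sirpa at 0.27 (limma adjusted p = 0.0906), Pilra at 0.27 (0.125) and Lair1 at 0.06 (0.685). Lilrb4a still rose by 2.71, 2.61 and 2.41 and Cd22 by 1.05, 1.04 and 1.42.

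Levels per 1000 FPKM of 8 microglia markers set the receptors against the microglial RNA in each library. Cd33 was then at 13.3 to 14.0 in wild type, where replicate 3 no longer lay apart, and at 10.1 to 11.8, 8.15 to 11.4 and 7.96 to 9.63 in 5xFAD EGFP, circRNA and PKR KO. Siglece was at 5.11 to 5.48 in wild type and at 2.23 to 2.46, 1.82 to 2.13 and 1.46 to 2.45 in the 5xFAD groups. Lair1 was at 9.07 to 11.3 in wild type and at 11.7 to 13.3, 9.63 to 13.7 and 11.0 to 13.5 in 5xFAD. On this scale no 5xFAD library reached the wild type range for Cd33 or Siglece, while the ranges of Lair1 overlapped in circRNA and PKR KO. Of the markers, Tmem119 was itself called lower against wild type in all 3 comparisons and P2ry12 in PKR KO, so the scale is not neutral. The ratios are a description, and limma was run on FPKM scaled to the same microglia marker sum, a scaling chosen after seeing the data. In 5xFAD EGFP it called Siglece, Cd22, Lilrb4a, Cd300lf and Sirpa, and Cd33 differed by -0.30 (adjusted p = 0.265), which is not a call. Cd33 was called lower on this scale with circRNA (-0.49, limma adjusted p = 0.0103) and in PKR KO (-0.63, limma adjusted p = 0.00156), and Lair1 was called in none of the 3.

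**Figure D4:**
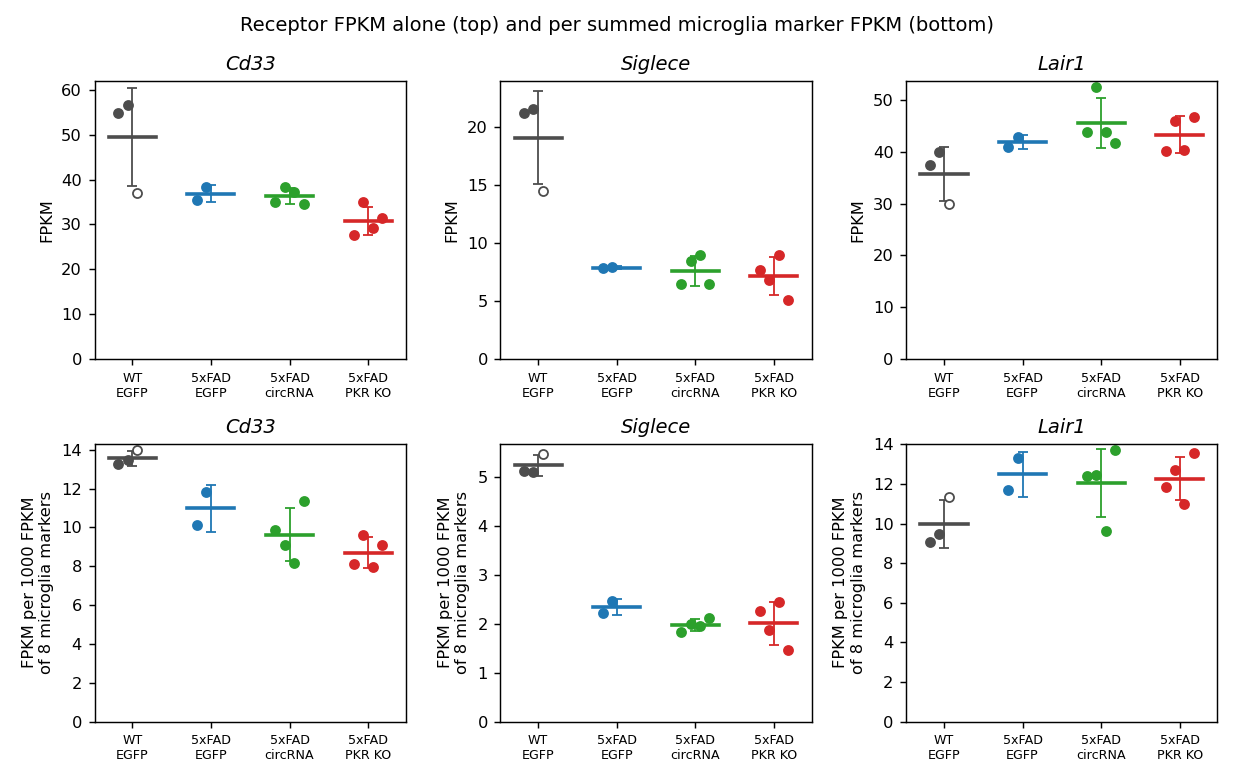
Cd33, Siglece and Lair1 by library, as FPKM (top row) and per 1000 summed FPKM of 8 microglia markers (bottom row), with vertical axes from 0; bars are group means, whiskers SD, and the open point is wild type replicate 3. In the bottom row all 3 wild type points of Cd33 lie between 13.3 and 14.0, above the highest 5xFAD point at 11.8.

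The next comparison asked whether the circular RNA vector moved the receptors in 5xFAD microglia. None of the 9 was called in limma against 5xFAD EGFP, and none of the 10817 genes was (0% of all genes, with 4.83% at an unadjusted p under 0.05). Voom on recovered fragments also called 0 genes, and the fit with the marker covariate called 13, none of them a receptor. Pilra had the largest difference, 0.28 (SE 0.15, limma adjusted p = 0.739). Its 4 circRNA libraries, at 2.57 to 3.30 FPKM, were above both EGFP libraries, at 2.25 and 2.28 FPKM, and its 95% interval was -0.05 to 0.61. Cd22 also had no overlap, at 7.48 to 8.29 FPKM against 7.35 and 7.41 FPKM, with a difference of 0.10 (interval -0.32 to 0.51). These were 2 of 9 receptors without overlap, against 19.3% of all genes. For the receptors with the largest changes from wild type the intervals were -0.39 to 0.41 for Lilrb4a, -0.36 to 0.29 for Cd300lf and -0.50 to 0.38 for Siglece, so the data are compatible with changes of either sign within these bounds.

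The group labelled PKR KO was compared with the same 2 EGFP libraries of 5xFAD. Again 0 of 9 receptors were called in limma, against 0.0832% of all genes (9 genes), and 13% of genes had an unadjusted p under 0.05. The count over all genes was unstable, from 0 under several alternatives, voom among them, to 577 with 2 groups fitted alone and 822 with array weights, while 0 receptors were called in each. Cd22 differed most, by 0.43 (SE 0.19, limma adjusted p = 0.376, interval 0.01 to 0.84). All 4 knockout libraries, at 8.06 to 12.5 FPKM, were above the EGFP libraries. Cd33 differed by -0.26 (SE 0.15, limma adjusted p = 0.485, interval -0.59 to 0.08), with every knockout library at or under 34.9 FPKM and both EGFP libraries at or above 35.5 FPKM. Sirpa differed by 0.16 (SE 0.17, limma adjusted p = 0.688), without overlap, and its sign turned under quantile normalization (-0.02). These were 3 of 9 receptors without overlap, against 34.8% of all genes. Lilrb4a differed by -0.25 (interval -0.65 to 0.15), and the other 5 receptors by -0.15 to 0.08.

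Between circRNA and PKR KO in 5xFAD, all 9 receptors overlapped and 0 were called in limma, against 6.19% of all genes. At an unadjusted p under 0.05, 0 receptors and 25.5% of all genes passed. The largest differences were -0.33 for Cd22 (SE 0.16, limma adjusted p = 0.205), 0.26 for Lilrb4a (SE 0.15, limma adjusted p = 0.293), 0.26 for Pilra (SE 0.12, limma adjusted p = 0.217) and 0.23 for Cd33 (SE 0.13, limma adjusted p = 0.257). With a covariate for neuronal, glial and vascular markers, chosen after seeing the data, Cd33 (0.38, limma adjusted p = 0.0120) and Pilra (0.38, limma adjusted p = 0.0279) were called higher with circRNA. Adjusted p over 19 alternatives ranged from 0.0120 to 0.775 for Cd33 and from 0.0279 to 0.722 for Pilra. Library names are given in the labels of PKR KO only.

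Within the 10 5xFAD libraries the receptors varied to different degrees. The coefficient of variation of FPKM was 8.57% for Lair1, 10.0% for Sirpa and 10.8% for Cd33, and 16.8% to 18.9% for Siglece, Lilrb4a, Pilra and Cd300lf. It was 22.1% for Cd22 and 26.1% for Siglec1. Cd22 ranged from 7.35 FPKM in an EGFP library to 12.5 FPKM in a PKR KO library, and Siglec1 ranged from 1.15 to 2.84 FPKM within PKR KO alone.

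The order of group means differed among receptors, with 6 orders over the 9. Cd33 and Siglece were highest in wild type, then 5xFAD EGFP, circRNA and PKR KO. Pilra, Sirpa and Lair1 were highest with circRNA, then PKR KO, EGFP and wild type. Cd22 ran the other way from Siglece, with PKR KO first and wild type last. The other 3 receptors had an order each. Lilrb4a was highest with circRNA, then EGFP, PKR KO and wild type. Cd300lf was highest in PKR KO, then EGFP, circRNA and wild type. Siglec1 was highest in wild type, then circRNA, PKR KO and EGFP. In each of these 6 orders no step between neighbouring 5xFAD groups passed the test. Across the 13 libraries, which share the group structure, Pearson's r of log2(FPKM + 1) was 0.96 between Lilrb4a and Cd300lf, 0.92 between Lilrb4a and Cd22, and -0.92 between Lilrb4a and Siglece.

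Genes outside the list whose log2(FPKM + 1) was most like each receptor over the 13 libraries are given by Pearson's r. For Siglece they were Tm6sf1 (0.994), Fam110a (0.991) and Nbeal2 (0.991). For Cd22 they were Tlr2 (0.991), Ly9 (0.990) and Cxcl16 (0.988). For Lilrb4a the first was the overlapping Gm49339 (0.998), followed by Olfr111 (0.995) and Kcnj2 (0.990). For Cd33 the values were lower, with Mef2a (0.980), Hps3 (0.971) and Lpcat3 (0.952). The closest to Cd300lf was Il3ra (0.979), to Sirpa Hvcn1 (0.993), to Lair1 Fam111a (0.977), to Siglec1 Eif2b3 (0.917) and to Pilra Slamf9 (0.910). All of these values are over libraries that share the same 4 groups, and they describe likeness of pattern only.

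The wider pathway was read from lists of related genes, given here for 5xFAD EGFP against wild type in limma, where 14% of all genes were called. Genes that averaged under 1 FPKM over the 13 libraries were not tested. A gene low in wild type could pass this filter only by being high in 5xFAD, so counts over tested genes can lean towards rises and are descriptions only. Medians are over all listed genes, tested or not, and the median over all 18291 genes with a value above 0 was -0.02. Of 5 other Siglecs listed, 3 were tested and 1 rose, with a median of -0.09 over the 5. Siglecf, a Siglec with an ITIM, was at 4.37, 4.36 and 2.88 FPKM in wild type and at 13.0 and 11.4 FPKM in 5xFAD EGFP, and rose by 1.45 (SE 0.13, limma adjusted p = 1.72e-05). Siglech and Mag were tested and not called. Siglech, a microglial Siglec that pairs with DAP12, differed by -0.33 (limma adjusted p = 0.319). Mag, a Siglec of myelin made by oligodendrocytes, differed by 0.87 (limma adjusted p = 0.256) with overlapping groups. Siglecg and Siglec15 were under the filter. With no filter both were called lower in limma, Siglecg by -0.38 (adjusted p = 0.0128), from 0.537 to 0.175 FPKM, and Siglec15 by -0.09 (adjusted p = 0.00372), from 0.066 FPKM to libraries listed at 0. Of 16 related PILR, LILR, SIRP and CD300 receptors listed, 10 were under the filter, among them all of the PILR and SIRP families. The 6 tested were LILR or CD300 genes and their relative Pirb. Of these 2 rose, Lilr4b (0.86) and Cd300lb (0.85), and 0 fell, with a median of -0.03 over the 16. Cd300lb encodes an activating CD300 receptor that pairs with DAP12, and it was at 0.133 FPKM in wild type and 1.04 FPKM in 5xFAD EGFP, so it passed the filter through 5xFAD alone.

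Downstream of the receptors, 4 of 13 tested phosphatases, adaptors and kinases rose and 1 fell, with a median of 0.02 over the 14 listed. Tyrobp, the gene for the activating adaptor DAP12, rose by 1.68, and Fgr, a Src-family kinase that averaged under 1 FPKM in wild type, by 1.62. Ptpn6, the gene for SHP-1, rose by 0.73 (limma adjusted p = 0.0174), from 35.7 to 58.8 FPKM. Its relatives in the list, Ptpn11 (SHP-2) and Inpp5d (SHIP-1), differed by -0.04 and -0.24 and were not called; these 3 were picked after their values were seen, as the phosphatases that ITIMs recruit. Dok3, an inhibitory adaptor, fell by 1.20.

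Of 17 tested genes for sialic acid synthesis, transfer and removal, 3 rose and 0 fell, with a median of -0.03 over the 25 listed. The rises were in sialyltransferases: St8sia6, which makes disialic acids, by 1.59 (from 2.31 to 8.91 FPKM), St6gal1, which makes the linkage that CD22 prefers, by 0.58 and St8sia4, which makes polysialic acid, by 0.40. Of 13 tested genes for known ligands of these receptors, 4 rose and 3 fell, with a median of -0.01 over the 17 listed. Pianp, a ligand of PILRA, rose by 3.05, from 0.469 to 11.1 FPKM, again under the filter in wild type, and Apoe by 2.51. The collagen IV genes Col4a2 and Col4a1, ligands of LAIR1, fell by 1.24 and 1.19. With no filter on low values Col4a2 was still called (limma adjusted p = 0.0379) and Col4a1 was not (0.0664). Endothelial and mural marker sums were also lower in those libraries, at 24.5 to 35.2 FPKM against 55.8 to 127 FPKM in wild type, and their part in the collagen values was not tested.

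Among 18 other inhibitory receptors and checkpoint genes listed, 12 were tested, 5 rose and 2 fell, with a median of 0.34 over the 18. Of the 5 that rose, 3 (Pdcd1, Cd72 and Cd5) averaged under 1 FPKM in wild type and passed the filter through 5xFAD alone. Pdcd1, the gene for PD-1, rose by 2.92, from 0.854 to 13.0 FPKM, and its ligand gene Cd274 by 1.57. T and NK cell marker sums were 0.010 to 0.14 FPKM in wild type and 0.24 to 0.26 FPKM in 5xFAD EGFP, and their part in these values was not tested. Clec4a2 and Ceacam1, both ITIM receptors, fell by 0.99 and 0.72. Against wild type the same lists gave, with circRNA, 1 of 3, 2 of 6, 5 of 13, 6 of 17, 7 of 13 and 7 of 12 genes higher and 0, 0, 1, 0, 2 and 2 lower, against 17.8% of all genes higher and 8.05% lower. In PKR KO they gave 1, 2, 5, 6, 8 and 7 higher and 0, 1, 1, 2, 3 and 2 lower, against 17.5% and 19.4% of all genes. These counts are small, and those near the share of all genes show nothing particular to a list. With no filter, over 5, 16, 14, 25, 17 and 18 listed genes in the same order, 1, 2, 3, 3, 4 and 6 were higher and 2, 0, 1, 1, 3 and 2 lower in 5xFAD EGFP (4.75% and 5.63% of all genes). With circRNA 1, 2, 5, 4, 4 and 8 were higher and 2, 0, 1, 1, 2 and 2 lower (11.2% and 8.26% of all genes). The rises lost with circRNA were those of C1qa, C1qb, C1qc, Nans and Slc17a5, and the fall lost was that of Col4a2. In PKR KO 1, 2, 5, 6, 6 and 9 were higher and 2, 0, 1, 5, 4 and 3 lower (11.6% and 19.5% of all genes). Cd47, the ligand of Sirpa, fell by 0.47 in PKR KO against wild type (limma adjusted p = 0.000714). Neither treatment comparison with 5xFAD EGFP called a gene of these 6 lists, and between circRNA and PKR KO limma called 3: Cd47 higher with circRNA, and St3gal3 and Colec12 lower.

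**Figure D5:**
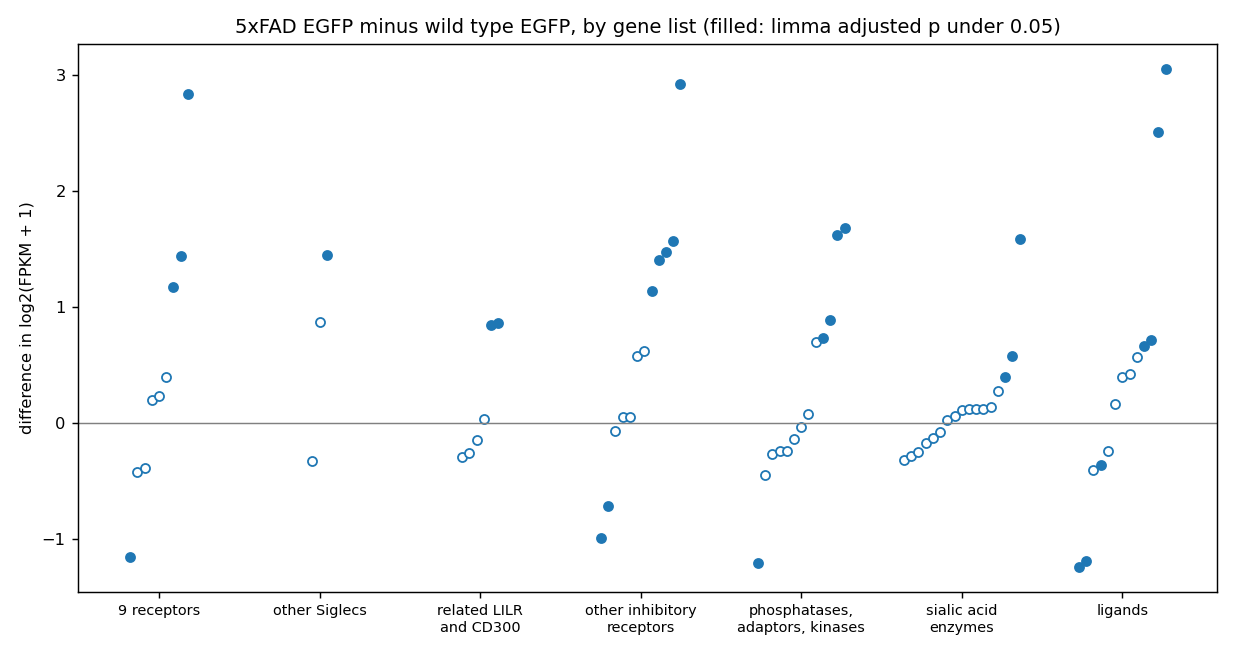
Difference in log2(FPKM + 1) between 5xFAD EGFP and wild type EGFP (vertical axis) for each tested gene of the 9 receptors and of 6 related lists; each point is a gene, filled where the limma adjusted p is under 0.05. Every list holds called genes, and genes low in wild type are shown only where high levels in 5xFAD took them past the filter, as with Pianp (3.05) and Pdcd1 (2.92).

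The receptors lie on 5 chromosomes of GRCm38 in the GENCODE M21 annotation, which is used here for positions. Cd33 (chr7:43524216-43544428), Siglece (chr7:43651070-43660161) and Cd22 (chr7:30865402-30880342) are on the minus strand of chromosome 7, as is Lair1 (chr7:4003402-4063204). Siglec1 (chr2:131069220-131086765, minus strand) and Sirpa (chr2:129592835-129632228, plus strand) are on chromosome 2. Lilrb4a is at chr10:51490956-51496611 on the plus strand, Pilra at chr5:137821952-137836281 and Cd300lf at chr11:115116214-115133992, both on the minus strand. The neighbouring Siglec genes Cd33 and Siglece both had lower levels in 5xFAD than the mean of wild type. Cd22, at lower coordinates of the same chromosome, was higher. Exon sequences of Siglece and Sirpa shared no 50-base window with another gene.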

How the data were processed

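RNA of 13 microglia libraries was measured. TRIzol extraction of total RNA, ribosomal RNA depletion and a stranded kit were used, per the labels' protocols. The authors deposited 1 table of FPKM values, 1 column per library, not pooled. The submitters' processing notes name HISAT2 2.1.0, Bowtie2 2.3.5, featureCounts 1.5.1 and build mm10, with no role or order. The annotation and the strand setting are not given in the sources used here. Libraries were grouped by title. The 9 receptors and the related lists were chosen with earlier results of these data known.

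Log2(FPKM + 1) was tested two-sided with limma 3.58.1 in R 4.3.3, in genes averaging 1 FPKM or more. All 4 groups entered 1 model (9 residual degrees of freedom, eBayes with intensity trend), with Benjamini-Hochberg adjustment over 10817 genes in each of 6 comparisons and a threshold of 0.05. The pipeline was tested on simulated data. The gene table gives no counts. Depth was recovered from the steps of low FPKM values and exon lengths of GENCODE M21, with 88.7% to 91.5% of values under 0.3 FPKM whole within 0.02 of a fragment. Intervals of a fit cover the spread between libraries, and counting errors cover counting only. Alternatives were another pseudocount, no filter, 3 other scalings, 2 groups alone, a replicate block, array weights, voom on recovered fragments and leaving out each library. All 9 receptors are named. Of each related list, the called genes with the largest changes are named, up to 2 in each direction, and genes outside this rule are marked or complete a count of 5 or fewer. For each receptor the genes most like it are the 3 with the highest Pearson's r. In the list of related receptors, names that were aliases in the gene table were replaced or removed after the table was seen. One B cell marker is not reported here and was left out of the marker sum.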

Additional observations from a re-analysis of the deposited data

How the results depend on the processing

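Over 594 refits of single receptors that kept all libraries, 526 kept direction and call, 15 lost a call, 12 gained one and 41 changed sign. Over 351 that left out 1 library, 311 kept both. No receptor that was called both before and after changed sign. The numbers of receptors called stayed within 1.5 times except in circRNA against wild type, at 4 with 2 groups alone (8 with all) and 5 to 7 without 1 library, and in circRNA against PKR KO, at 2 with the marker covariate (0 without). Without 1 library the counts were 4 to 5 in 5xFAD EGFP against wild type, 6 to 8 in PKR KO against wild type and 0 in the others. The covariate and the scaling to the same microglia marker sum were chosen after seeing the data.

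Sign changes against wild type occurred under quantile normalization: Sirpa -0.078, -0.023 and -0.099 in 5xFAD EGFP, circRNA and PKR KO, and Lair1 -0.044 in PKR KO. In circRNA against EGFP, Lilrb4a was -0.088 (quantile), -0.10 (same FPKM sum), -0.074 (median ratio), -0.0088 (covariate) and -0.16 (same marker sum). Cd22 was -0.0081 (same FPKM sum) and -0.057 (same marker sum), Sirpa -0.011 (same marker sum), and Lair1 -0.052, -0.0039 and -0.059 (quantile, same FPKM sum, same marker sum). In PKR KO against EGFP, Siglec1 was -0.059 (covariate). Pilra was -0.018, -0.13 and -0.026 and Lair1 -0.015, -0.10 and -0.026 (same FPKM sum, covariate, same marker sum). Under quantile normalization Lair1 was -0.14 and Sirpa -0.021. In circRNA against PKR KO, Siglece was -0.023, -0.056 and -0.0017, Siglec1 -0.048, -0.093 and -0.031 and Sirpa -0.13, -0.069 and -0.10 (median ratio, array weights, same marker sum). Siglec1 was -0.079 (quantile) and -0.0019 (same FPKM sum), Sirpa -0.054 (same FPKM sum), and Lair1 -0.058 and -0.033 (median ratio, same marker sum). The cause of these was not tested.

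Without 1 library, the ranges that crossed 0 in circRNA against EGFP were -0.075 to 0.029 for Cd33, -0.14 to 0.0028 for Siglece, -0.0079 to 0.24 for Siglec1, -0.11 to 0.13 for Lilrb4a and -0.084 to 0.019 for Cd300lf. In PKR KO against EGFP they were -0.078 to 0.21 for Siglec1, -0.059 to 0.10 for Pilra and -0.029 to 0.17 for Cd300lf. In circRNA against PKR KO they were -0.044 to 0.20 for Siglece, -0.084 to 0.20 for Siglec1, -0.082 to 0.067 for Sirpa and -0.0015 to 0.11 for Lair1.

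In the fit with a replicate block, the counts of receptors called were 4, 0, 0, 8, 6 and 0 in the 6 comparisons, the same genes as without it. The block turned the sign of 3 differences in circRNA against EGFP, Cd33 to 0.054, Siglece to 0.038 and Cd300lf to 0.050. The correlation of deviations between libraries with the same number was -0.42 to 0.69 in circRNA against wild type, -0.18 to 0.58 in PKR KO against wild type and 0.04 to 0.55 in circRNA against PKR KO. With 2 pairs each it was 0.27 and 0.38 in PKR KO against EGFP, -0.03 and 0.27 in 5xFAD EGFP against wild type and -0.02 and 0.17 in circRNA against EGFP. In each comparison the mean was higher for the same number than for different numbers. It was 0.02 against -0.02 in circRNA against wild type, the closest, and 0.33 against -0.11 in PKR KO against EGFP, the farthest apart. Single values were under 0.1 in each comparison of 3 or more pairs, so whether the numbers pair the libraries is not settled. Genes called over the whole table were 1514 in 5xFAD EGFP against wild type, 509 with 2 groups alone, 3709 with the same FPKM sum, 2583 with the covariate, 935 with the same marker sum and 566 to 1998 without 1 library. In circRNA against wild type they were 2796, 1725 with 2 groups alone, 5676 with the same FPKM sum and 1473 with the same marker sum. In PKR KO against wild type they were 3997, 6595 with the same FPKM sum and 2031 with the same marker sum. In circRNA against PKR KO they were 670, 3161 with array weights, 1423 with the covariate, 129 with the same marker sum and 147 to 506 without 1 library. In PKR KO against EGFP they were 9, 46 with median ratio scaling, 577 with 2 groups alone, 22 with the block, 822 with array weights, 16 with the covariate, 8 with the same marker sum, 0 to 2 without 1 library and 0 in the other 5. In circRNA against EGFP they were 0, and 13 with the covariate. In circRNA against PKR KO the split was 463 higher and 207 lower, 339 and 344 with the same FPKM sum, 164 and 347 under quantile normalization, 148 and 697 with median ratio scaling and 6 and 123 with the same marker sum. Depth limits Cd300lf most, with 50 fragments in its lowest library.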

Other observations

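The summed FPKM of the 9 receptors was 333 ± 60.4 (SD, n = 3) in wild type, 407 ± 2.00 (SD, n = 2) in 5xFAD EGFP, 448 ± 46.8 (SD, n = 4) with circRNA and 436 ± 31.1 (SD, n = 4) in PKR KO, and Sirpa was the largest part in every group. The 5xFAD EGFP libraries agreed closely for several receptors, with an SD of 0.047 FPKM at a mean of 7.38 FPKM for Cd22 and of 0.024 FPKM at a mean of 2.27 FPKM for Pilra, but a pair of libraries gives a poor estimate of spread. In PKR KO, replicates 2 and 4 were both above replicates 1 and 3 for 6 of 9 receptors (Cd33, Siglec1, Cd22, Lilrb4a, Sirpa and Lair1), against 17.2% of all genes tested, and both below for Siglece, against 28.5%, with no label that separates them. This split of PKR KO was chosen after the values were seen, so these counts are a description only. Neutrophil marker sums in that group ran from 1.25 to 24.6 FPKM, the highest in replicate 4, and their part in these values was not tested.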
